A study of Mus musculus with 24 samples.

Results

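Krt6a, Krt6b, Krt16 and Krt17 are the keratins that the epidermis makes at a wound edge. They were followed here in the healing back wounds of diabetic mice, as 4 genes found by symbol among the 54232 genes of the count tables, and all 4 passed the filter on low counts together with 18978 genes in all. The 24 libraries came from male C57BLKS/J mice with the genotype Lepr (db/db), a leptin receptor mutation that makes mice obese and diabetic. Every animal received a full-thickness 6 mm punch wound at 16 weeks of age. An alginate bandage went onto the fresh wound, was renewed on day 3, and the wound tissue was taken on day 10, at 17.5 weeks. A control bandage was used in 6 libraries (Ctrl). The other bandages carried medium that primary macrophages had conditioned. The macrophages were of the M0 type in 4 libraries (CM0) and of the M1 type in 4 (CM1), while CMA stands for M2a cells, with 5 libraries, and CMC for M2c cells, also with 5. All groups share the strain, the mutation, the sex and the bandage, and no group of non-diabetic or unwounded mice was analysed here. The labels do not say how many animals or macrophage donors stand behind the libraries, so the p-values measure the spread between these libraries.

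Keratins are the filament proteins of epithelial cells and form obligate pairs of a type II and a type I chain. Resting epidermis pairs Krt5 with Krt14 in its basal layer and Krt1 with Krt10 above it. After injury, keratinocytes at the wound margin switch on the type II keratins Krt6a and Krt6b and the type I keratins Krt16 and Krt17, and keep them on in the tongue of cells that covers the wound. Krt6a, Krt16 and Krt17 are also made without injury in parts of the hair follicle and nail, and Krt17 is the most widely expressed of the group in skin appendages.

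The genes lie in the 2 keratin clusters of the mouse genome (GRCm38, GENCODE M21 annotation). Krt6a (ENSMUSG00000058354) spans bases 101689910 to 101694307 on the minus strand of chromosome 15, next to Krt6b (ENSMUSG00000023041) at 101676023 to 101680287. Krt16 (ENSMUSG00000053797) spans 100246091 to 100248902 and Krt17 (ENSMUSG00000035557) 100256217 to 100261029, both on the minus strand of chromosome 11. All 4 are protein-coding, with exons that add up to 2418, 2235, 1565 and 1551 bases in the order Krt6a, Krt6b, Krt16 and Krt17.

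How far Krt6a and Krt6b can be told apart from RNA reads sets how their counts can be read. Their coding sequences were identical at 1625 of 1662 aligned bases (97.8%), with 37 mismatches. The stretch below, from the first coding exon, is the longest run without any difference, 280 bases long, and a read inside it fits both genes. It lies at chr15:101693936-101694215 in Krt6a and at chr15:101679911-101680190 in Krt6b, minus strand, and is coding base 34 to 313 in each.
Krt6a and Krt6b: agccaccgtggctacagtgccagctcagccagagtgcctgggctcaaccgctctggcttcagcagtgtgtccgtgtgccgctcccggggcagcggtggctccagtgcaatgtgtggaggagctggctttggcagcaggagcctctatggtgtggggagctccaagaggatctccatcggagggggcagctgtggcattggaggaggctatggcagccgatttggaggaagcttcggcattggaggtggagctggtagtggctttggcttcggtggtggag

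The next pair of lines shows the opposite case, the 120 coding bases with the most differences. Coding bases 751 to 870 hold 17 of the 37 mismatches, marked by capitals, and span a splice junction. In the genome they lie between bases 101692490 and 101692766 for Krt6a and between 101678309 and 101678585 for Krt6b.
Krt6a: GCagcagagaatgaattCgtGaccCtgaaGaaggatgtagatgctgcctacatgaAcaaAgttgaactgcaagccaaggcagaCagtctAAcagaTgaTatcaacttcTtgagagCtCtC
Krt6b: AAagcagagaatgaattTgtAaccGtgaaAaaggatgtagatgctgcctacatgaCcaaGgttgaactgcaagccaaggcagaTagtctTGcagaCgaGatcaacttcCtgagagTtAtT

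Counted over whole transcripts, 47.5% of the 100-base windows of Krt6a and 30.6% of those of Krt6b occur unchanged in a transcript of another gene, and at 150 bases the shares were 30.2% and 18.8%. For Krt6a these partners were Krt6b and the antisense gene Gm49428, which overlaps it. Krt16 shared 24.3% of its 100-base windows, with the pseudogene Gm11597 and with Krt14, whose coding sequence was 86.5% identical to it. At 150 bases its share was 18.4%, with Gm11597. Krt17 shared none at 75, 100 or 150 bases and 4.0% at 50 bases. The partners without a known product took almost no counts, 0 to 8 a library for Gm49428 and 0 to 14 for Gm11597. These low counts cannot show that few reads were lost, because reads that fit several genes may have been counted for none. No source used here gives the read length or the treatment of reads that fit several genes, so the split of counts between Krt6a and Krt6b is uncertain, and their sum is given beside them where it matters.

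The libraries held between 7267879 and 11985292 counts in genes. Levels below are in CPM, counts divided by a library size that was scaled with edgeR's TMM factors and set to a common total. Sums over marker lists are the exception and use the unscaled library total. The 15 keratinocyte junction genes used to check for epidermis, Cdh1 and Dsp among them, were detected in every group, with library scores (mean log2 CPM) between 6.36 and 8.23. Tissue of other kinds differed between libraries. The 9 tested of 10 skeletal muscle genes scored highest in Ctrl 4 (9.73), CM0 2 (9.59) and Ctrl 2 (9.41) and from 7.18 to 8.92 in the other 21 libraries. The 14 tested of 20 hair follicle genes scored highest in Ctrl 3 (7.96), CMA 3 (5.06), Ctrl 4 (4.69) and CM0 2 (4.13). In tissue libraries, fewer cells of a type and less RNA per cell cannot be told apart.

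**Figure D1:**
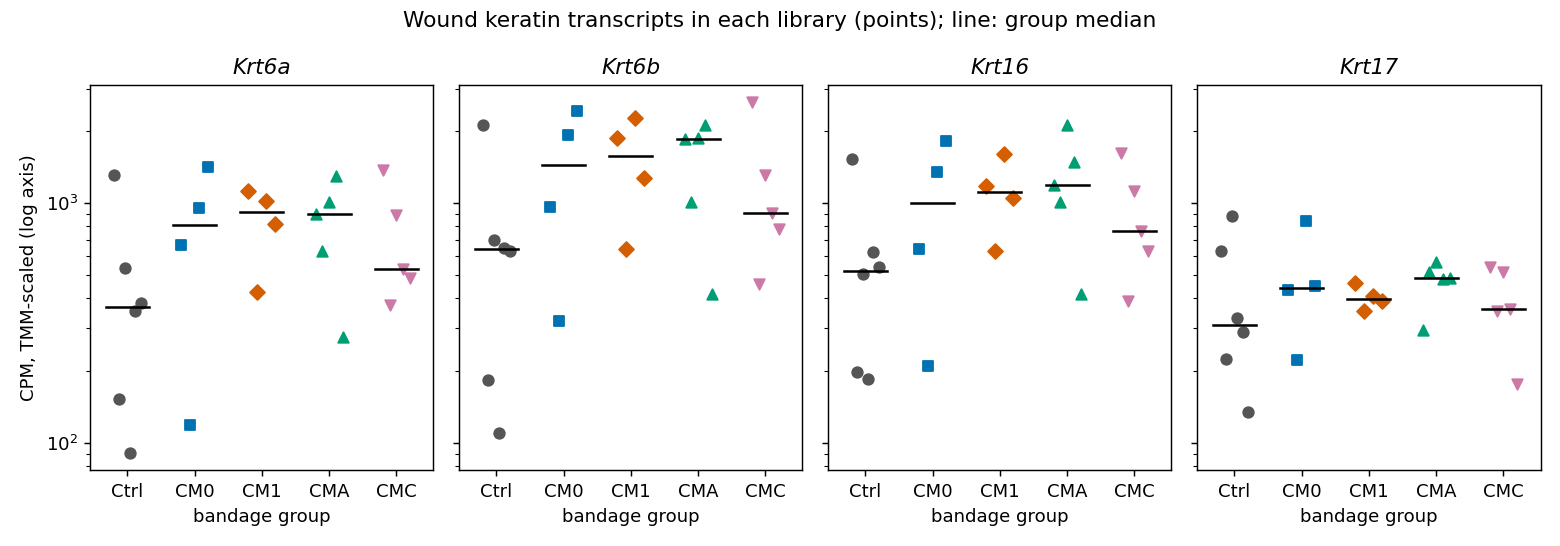
Level of each wound keratin in every library. Each point is 1 library, the vertical log axis gives TMM-scaled CPM, the horizontal axis the bandage group, and the line marks the group median. Within Ctrl, Krt6a runs from 90.8 to 1309 CPM, and every medium group overlaps Ctrl for all 4 genes.

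Krt6a, a type II chain, was the member with the lowest single value. Its 6 Ctrl libraries read 90.8, 152, 353, 383, 536 and 1309 CPM. With M0 medium the values were 118, 666, 952 and 1415 CPM, and with M1 medium 424, 816, 1019 and 1121 CPM. CMA libraries lay at 276, 631, 898, 1008 and 1301 CPM and CMC libraries at 375, 486, 532, 896 and 1374 CPM. Ctrl 1 was as high as the highest medium libraries and the other 5 Ctrl libraries lay at 536 CPM or less, while CM0 and CMA each had 1 library below 353 CPM. Of the 18 libraries with a conditioned medium, 16 exceeded the Ctrl median of 368 CPM. The span from lowest to highest was 15.6-fold.

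Krt6b, the second wound-induced type II chain, was higher than Krt6a in count in every library. In Ctrl it read 110, 182, 634, 650, 700 and 2126 CPM. The CM0 libraries read 323, 960, 1920 and 2425 CPM, and the CM1 libraries 644, 1275, 1868 and 2258 CPM. CMA values were 416, 1011, 1844, 1875 and 2122 CPM, and CMC values 460, 782, 909, 1313 and 2632 CPM. Its 23.9-fold span was the widest of the 4 genes, and 15 of 18 medium libraries exceeded the Ctrl median of 642 CPM. The ratio of Krt6b to Krt6a counts had a median of 1.63 and ran from 1.19 in Ctrl 2 to 2.74 in CM0 2, a range subject to the shared sequence shown above.

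Krt16 is the type I partner of the Krt6 chains. Its Ctrl libraries read 185, 198, 505, 540, 623 and 1532 CPM. CM0 libraries read 209, 641, 1352 and 1816 CPM, and CM1 libraries 630, 1047, 1178 and 1596 CPM. CMA gave 416, 1015, 1193, 1482 and 2129 CPM and CMC 391, 633, 764, 1129 and 1620 CPM. All 4 CM1 libraries lay above 5 of the 6 Ctrl libraries, while the other media each had at least 1 library below the Ctrl median of 522 CPM. The span over all libraries was 11.5-fold.

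Krt17, a type I chain that also occurs in hair follicles, had a different pattern. The Ctrl libraries read 134, 223, 290, 330, 632 and 885 CPM and so held both its lowest and its highest value. CM0 libraries read 222, 432, 453 and 842 CPM. The CM1 libraries kept within 354 to 463 CPM (mean 404 ± 45.7, SD, n = 4), CMA within 295 to 569 CPM and CMC within 176 to 540 CPM. Every medium group lay inside the Ctrl range. The span was 6.61-fold.

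The low end of the range was set by the same libraries for Krt6a, Krt6b and Krt16. Ctrl 4, Ctrl 2 and CM0 2, the 3 libraries with the highest skeletal muscle scores, were the 3 lowest for each of these genes. CM0 4 and CMC 1 were among the 4 highest for each, although the highest library differed, CM0 4 for Krt6a, CMC 1 for Krt6b and CMA 3 for Krt16. For Krt17 the lowest library was Ctrl 6, which also had the lowest keratinocyte junction score (6.36), and the highest was Ctrl 3, which had the highest hair follicle score. Together the 4 keratins made up between 0.073% and 0.598% of all counts of a library, with a median of 0.296%.

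Expressed per kilobase of exon, so that genes can be compared, the mean level over the 24 libraries was 608 ± 354 CPM for Krt16, 549 ± 348 for Krt6b, 295 ± 171 for Krt6a and 278 ± 118 for Krt17 (SD, n = 24). Krt16 exceeded Krt6b in 18 of 24 libraries, so these neighbours in the order lie within each other's spread. Both exceeded Krt6a in all 24 libraries. Krt6a and Krt17 each led in 12. On the same scale the basal keratins read 1647 ± 640 for Krt14 and 577 ± 119 for Krt5. Levels per kilobase of Krt6a, Krt6b and Krt16 would be underestimates if reads that fit several genes had been dropped. For Krt6a this includes reads over the overlapping Gm49428. Such loss, and its part in the order of the genes, was not tested.

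The first question of the design is whether a conditioned medium went with another level of these keratins than the control bandage. The mean levels of Krt6a, Krt6b and Krt16 were 1.52 to 2.08 times the Ctrl mean in each of the 4 media by the edgeR quasi-likelihood fit, those of Krt17 0.933 to 1.17 times, and none of these differences passed the test. Averaged over the 4 media, the log2 fold change was 0.76 for Krt6a (SE 0.48, edgeR adjusted p = 0.621), 0.93 for Krt6b (SE 0.52, adjusted p = 0.587), 0.83 for Krt16 (SE 0.45, adjusted p = 0.566) and 0.07 for Krt17 (SE 0.31, adjusted p = 0.958). The 95% intervals were -0.25 to 1.76, -0.17 to 2.02, -0.11 to 1.76 and -0.57 to 0.70. For the sum of Krt6a and Krt6b counts, which does not depend on how reads were split between them, the log2 fold change was 0.86 (SE 0.51, edgeR adjusted p = 0.595).

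Medium by medium, Krt6a stood at a mean of 470 ± 441 CPM with the control bandage (SD, n = 6), at 788 ± 543 with M0 medium (n = 4), 845 ± 308 with M1 medium (n = 4), 823 ± 389 with M2a medium (n = 5) and 733 ± 408 with M2c medium (n = 5). For Krt6b the mean was 733 ± 728 CPM with the control bandage, and 1407 ± 944, 1511 ± 705, 1454 ± 716 and 1219 ± 847 CPM with M0, M1, M2a and M2c medium. The groups overlapped for both genes with every medium. The Krt16 mean was 597 ± 493 CPM in Ctrl and 1247 ± 629 in CMA, a difference of 1.06 on the log2 scale (SE 0.55, with a 95% interval from -0.08 to 2.20, edgeR adjusted p = 0.733), which was the largest estimate among the 16 comparisons of a keratin with a single medium. The smallest in size was that of Krt17 with M1 medium, -0.04 (SE 0.42, 95% interval -0.91 to 0.82, edgeR adjusted p = 0.992). The 4 media share the Ctrl libraries, so their estimates are not independent of one another.

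**Figure D2:**
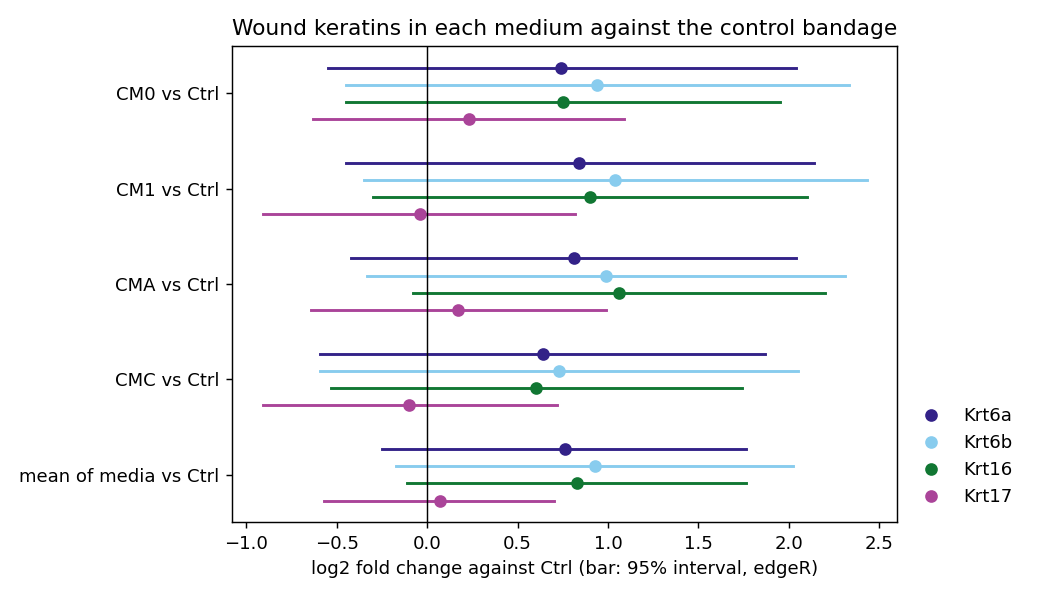
Log2 fold change of each keratin against the control bandage, for every medium and for the mean of the 4 media. Points are edgeR estimates and bars 95% intervals. All 20 intervals include 0, and Krt17 lies nearest to it in each comparison.

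The call rate across the transcriptome matched that of the keratins. In each comparison with Ctrl, and in the mean of the media, 0 of 4 keratins and 0.0% of the 18978 genes had an edgeR adjusted p under 0.05. At an unadjusted p under 0.05 edgeR gave 1788 genes for the mean of the media, and 933, 1337, 1254 and 1622 for CM0, CM1, CMA and CMC. DESeq2 called 1 gene in each of CM0 (Vgll3), CM1 (Fibin) and CMC (Cebpd) against Ctrl and none of the keratins. These 3 genes are named because the count is small and were chosen after their values were seen. A medium group and Ctrl that did not overlap were found for 0 of 4 keratins with each medium, beside 0.801% of all genes for CM0, 1.1% for CM1, 0.327% for CMA and 0.543% for CMC.

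A test on the log scale weighs low libraries more heavily than a ratio of mean counts does. The mean log2 CPM of the 18 medium libraries exceeded that of the 6 Ctrl libraries by 1.29 for Krt6b (two-sided exact permutation p = 0.0201), by 1.04 for Krt6a (exact permutation p = 0.0413), by 1.0 for Krt16 (exact permutation p = 0.0351) and by 0.27 for Krt17 (exact permutation p = 0.39). These p-values are not adjusted for the 20 comparisons of this kind, 5 for each gene, and no single medium reached p under 0.05 for any of the 4. For Krt6b and Krt16 the p rose above 0.05 when either Ctrl 2 or Ctrl 4 was left out, to exact permutation p = 0.0763 and 0.104 for Krt6b and 0.12 and 0.127 for Krt16. For Krt6a leaving out any 1 of 14 of the 24 libraries did so, with exact permutation p between 0.0505 and 0.182. Without all 3 libraries richest in muscle transcripts the differences were 0.45, 0.52 and 0.49 for Krt6a, Krt6b and Krt16 (exact permutation p = 0.28, 0.285 and 0.241). Without the 4 libraries richest in hair follicle transcripts they were 0.88, 0.97 and 0.76 (exact permutation p = 0.077, 0.0925 and 0.107), and that of Krt17 was 0.63 (exact permutation p = 0.0675). Both of these alternatives were added after the data were seen. Ctrl 4 and CM0 2 were in both sets left out, so the alternatives are not separate checks. The 3 muscle-rich libraries, Ctrl 4, Ctrl 2 and CM0 2, were also the lowest for Krt6a, Krt6b and Krt16. Smaller differences without them follow from that choice. Leaving out Ctrl 1, the high control, raised the differences of Krt6a, Krt6b and Krt16 to 1.44, 1.72 and 1.34 (exact permutation p = 0.00743, 0.00348 and 0.00669). That run was singled out by the keratin values of Ctrl 1, so the rise follows from the choice. Its p-values are unadjusted as well.

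The second question is whether the media differed among themselves. Over the 6 pairs of media and 4 keratins, 24 edgeR tests gave 0 calls, beside 0.0% of all genes in each pair, and log2 fold changes between -0.46 and 0.31. The largest in size was Krt16 in CMC against CMA, 907 ± 479 against 1247 ± 629 CPM, with a log2 fold change of -0.46 (95% interval -1.65 to 0.73, edgeR adjusted p = 0.886). Both groups' SDs exceeded the difference between their means. The test for any difference among the 5 groups gave edgeR adjusted p of 0.951 for Krt6a, 0.936 for Krt6b, 0.929 for Krt16 and 0.99 for Krt17.

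Most of the spread of these genes lay within groups. The SD of log2 CPM over the 24 libraries was 1.11 for Krt6a, 1.22 for Krt6b, 1.03 for Krt16 and 0.65 for Krt17, against 0.31 for Krt5, 0.60 for Krt14 and a median of 0.27 over all genes tested. Among the 6157 genes with an average log2 CPM of at least 5, the SD was lower than that of Krt6a and of Krt6b in 99.8%, of Krt16 in 99.6% and of Krt17 in 97.7%. The groups accounted for 19%, 23.3%, 22.5% and 6.71% of the variance of Krt6a, Krt6b, Krt16 and Krt17, where the median gene had 16.3%. Krt6a, Krt6b and Krt16 were thus among the most variable abundant transcripts of these wounds.

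Krt6a, Krt6b and Krt16 moved together from library to library. Over the 24 libraries Pearson's r of log2 CPM was 0.97 for Krt6a with Krt6b, 0.96 for Krt6a with Krt16 and 0.97 for Krt6b with Krt16, and Spearman's rho was 0.98, 0.95 and 0.97. Each had a permutation p of 1e-05, the smallest that 100000 resamples can give, and an adjusted p of 2e-05 over the 6 pairs. The shared reads of Krt6a and Krt6b bear on the first of these values. Krt16 lies on another chromosome and in another keratin type, at 62.1% coding identity with either of them. Without the 2 libraries farthest from the median of the first gene the coefficients were 0.98, 0.95 and 0.96, and within the 6 Ctrl libraries alone they were 0.99, 0.96 and 0.98.

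Krt17 followed the other 3 less closely. Its Pearson r was 0.53 with Krt6a (permutation p = 0.0073, adjusted 0.011), 0.48 with Krt6b (permutation p = 0.017, adjusted 0.017) and 0.51 with Krt16 (permutation p = 0.011, adjusted 0.014). Spearman's rho was 0.61, 0.59 and 0.55 (permutation p = 0.0018, 0.0027 and 0.0057). Without the 2 extreme libraries r was 0.52, 0.46 and 0.47. With group means removed it was 0.53, 0.45 and 0.48.

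**Figure D3:**
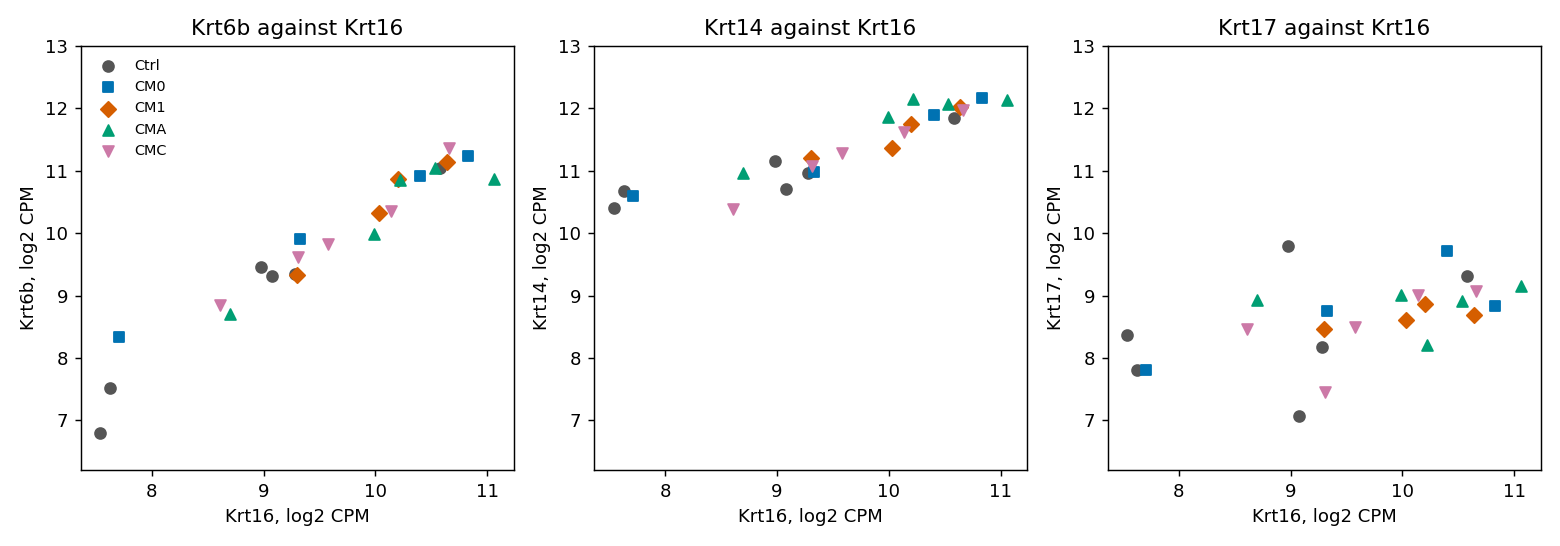
Krt6b, Krt14 and Krt17 against Krt16 in log2 CPM, 1 point per library, with colour and shape for the bandage group. Krt6b and Krt14 rise with Krt16 in a narrow band (r = 0.97 and 0.93), while Krt17 scatters (r = 0.51), with Ctrl 3 high and Ctrl 6 low.

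The count ratio of Krt16 to Krt17 shows the same divergence within each library, where scaling plays no part. It was 0.561 in Ctrl 4, 0.571 in Ctrl 3, 0.886 in Ctrl 2, 2.15 in Ctrl 5, 2.42 in Ctrl 1 and 4.03 in Ctrl 6. CM0 libraries gave 0.94, 1.48, 1.61 and 4.01. The ratio ran from 1.78 to 3.90 with M1 medium, from 0.855 to 4.04 with M2a medium and from 1.11 to 3.59 with M2c medium. Krt17 therefore outnumbered Krt16 in 3 Ctrl libraries, CM0 2 and CMA 5. The mean log2 ratio was 0.73 higher with a medium than in Ctrl (two-sided exact permutation p = 0.0835), a measure chosen after the values were seen. Without the 4 libraries richest in hair follicle transcripts the difference was 0.13 (exact permutation p = 0.746), and the p was below 0.05 without Ctrl 1, Ctrl 6 or CMA 5 (exact permutation p = 0.0477, 0.0145 and 0.0474).

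Among the other epidermal keratins, Krt14, the basal type I chain that lies in the same cluster as Krt16 and Krt17, was closest to the wound keratins. Its r with Krt6a, Krt6b, Krt16 and Krt17 was 0.87, 0.90, 0.93 and 0.54. Krt5, which forms filaments with Krt14 in basal cells, had r of 0.01, 0.02, 0.09 and 0.26 and spanned only 2.50-fold, from 722 to 1804 CPM. Krt14 spanned 3.47-fold, from 1329 to 4612 CPM. Krt16 and Krt14 share windows of 50, 75 and 100 bases but none of 150 bases. The part of this in their correlation was not tested. Krt1 of the layers above the basal one had r of 0.58, 0.68, 0.69 and 0.45 with the 4 genes, and its partner Krt10 0.41, 0.52, 0.53 and 0.38. These coefficients describe libraries that share preparation and tissue mix and carry no p.

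Other cell types moved with the wound keratins to different degrees. The skeletal muscle score had r of -0.72, -0.71, -0.72 and -0.35 with Krt6a, Krt6b, Krt16 and Krt17. Summed levels of the 10 muscle genes ran from 3391 to 11332 CPM with the control bandage and from 3021 to 8810, 2394 to 4542, 1818 to 5360 and 2076 to 5943 CPM with M0, M1, M2a and M2c medium. The keratinocyte junction score had r of 0.49, 0.53, 0.56 and 0.67, so Krt17 was the member closest to it. The hair follicle score had r of -0.26, -0.26, -0.23 and 0.31. Krt75, a keratin of the follicle's companion layer, gave -0.29, -0.28, -0.27 and 0.27. Summed levels of the hair follicle genes found in the tables (Krt85 had no match) ran from 5.67 to 10242 CPM with the control bandage and from 12.4 to 643, 25.4 to 79.8, 16.3 to 1218 and 9.81 to 158 CPM with M0, M1, M2a and M2c medium. The part of muscle and hair tissue in the differences between groups was not tested. The libraries left out above cannot decide it, because the muscle-rich ones were also the lowest for Krt6a, Krt6b and Krt16.

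The neutrophil score, from 7 tested of 10 genes, had r of 0.85, 0.82, 0.80 and 0.42 with the 4 keratins. It includes S100a8 and S100a9, subunits of calprotectin, which wounded keratinocytes make as well as neutrophils. Those genes had the highest r with Krt6a, 0.95 and 0.91. The neutrophil receptors Csf3r and Cxcr2 had r of 0.59 and 0.67 with Krt6a and 0.07 and 0.35 with Krt17. Ly6g, which marks mouse neutrophils, had a count of 0 in 19 of 24 libraries and at most 5. Summed levels of the 10 genes ran from 36.3 to 317 CPM with the control bandage and from 27.3 to 429, 164 to 600, 53.8 to 465 and 74.1 to 366 CPM with M0, M1, M2a and M2c medium. The part of neutrophils in the keratin differences was not tested.

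**Figure D4:**
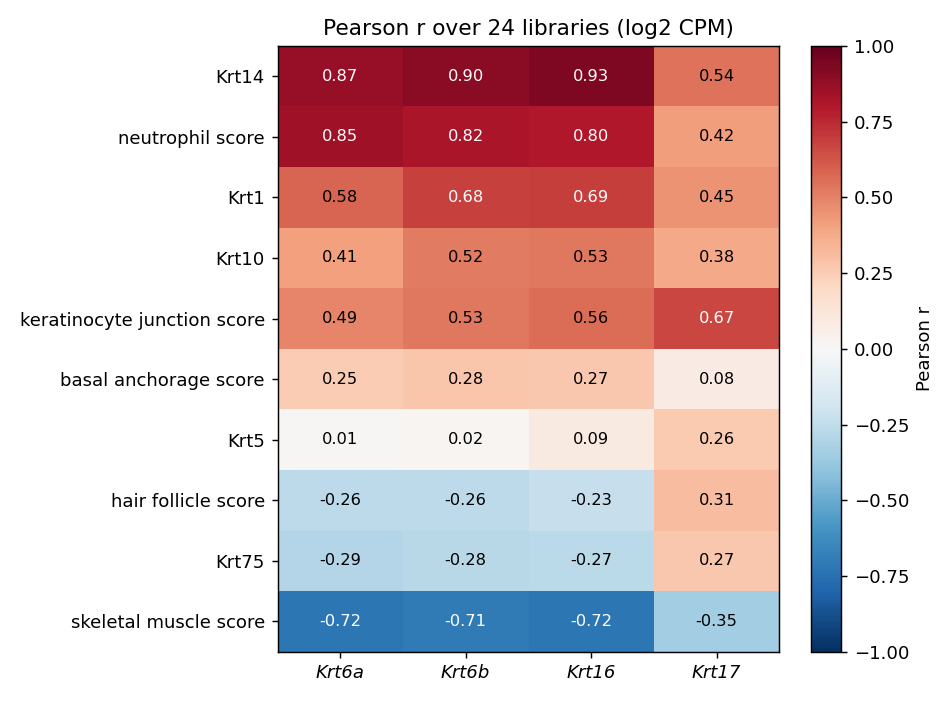
Pearson r over the 24 libraries between the log2 CPM of each wound keratin (columns) and other keratins or marker scores (rows), with the colour scale from -1 to 1. Krt14 and the neutrophil score stand at 0.80 or above for Krt6a, Krt6b and Krt16, the skeletal muscle score at -0.71 or below, and the Krt17 column differs in the sign of the hair follicle rows.

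The genes most like the 4 keratins were ranked by the mean of their r with them, over 24 libraries and among 15761 genes with an average log2 CPM of at least 1. S100a8 came first (mean r 0.83), with levels from 6.46 to 214 CPM. Defb1, a beta-defensin, Fabp5, an epidermal fatty acid binding protein, Rbp2, a retinol binding protein, and Teddm3 followed at 0.82 each. Glrx, a glutaredoxin, Tent5b, Krt14 and Gjb6, which encodes the gap junction protein connexin 30, stood at 0.81 and Csta1, a stefin that inhibits cathepsins, at 0.80. A mean over the 4 keratins gives most weight to Krt6a, Krt6b and Krt16, which moved together. In all 10 genes, as that rule favours, the coefficient was lower for Krt17 than for the other 3 keratins. None passed the test for the mean of the media: their log2 fold changes ran from 0.44 for Tent5b to 1.20 for S100a8 (SE 0.58, edgeR adjusted p = 0.535), with 0.48 for Fabp5 (SE 0.23, adjusted p = 0.525). At the other end stood Ppp1r12b, a subunit of muscle myosin phosphatase (mean r -0.74), and Fxr1 and Mef2c, the latter a transcription factor of muscle and vessels, at -0.72 each.

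Genes of the pathways around these keratins were taken as lists and are described by their estimates in the mean of the media, where 0 genes of any list were called and the median over all genes tested was -0.01. Of 22 tested activated epidermis genes, which encode envelope precursors, alarmins and gap junction proteins of injured skin, 21 had a positive log2 fold change, with a median of 0.54. Several other tissue lists were one-sided too. Positive were 8 of 8 adipocyte, 6 of 6 endothelial and 9 of 10 fibroblast genes (medians 0.22, 0.09 and 0.2). Single media differed from this average. Of the 6 endothelial genes, 6 were positive in CM0 and in CM1, 4 in CMC and 1 in CMA (median -0.19). Of the 8 adipocyte genes, 5 were positive in CM0 and 8 in each other medium. Negative in the mean of the media were 14 of 14 hair follicle, 5 of 5 melanocyte and 8 of 9 skeletal muscle genes (medians -3.53, -1.85 and -0.57). The median library did not show this for hair follicle genes. Their median score was 0.17 in Ctrl and 0.8, 1.15, 2.48 and 0.49 in CM0, CM1, CMA and CMC, while Ctrl 3 reached 7.96. Median melanocyte scores were 1.58 in Ctrl and 1.99, 1.55, 2.31 and 1.17 in the media, with a highest Ctrl score of 6.08. Macrophage, sebaceous gland and neutrophil lists were mixed, with 4 of 10, 3 of 5 and 5 of 7 positive. Among the activated epidermis genes the IL-36 cytokines had the smallest p-values. Il1f9 (IL-36 gamma) averaged 19.5 ± 10.7 CPM in Ctrl and 27.9 to 43.0 CPM in the media (log2 fold change 0.85, edgeR adjusted p = 0.466). Il1f6 (IL-36 alpha) averaged 4.59 ± 1.56 CPM in Ctrl and 5.28 to 14.2 CPM in the media (0.95, edgeR adjusted p = 0.468). Gjb6 and Gjb2, connexins 30 and 26, had the highest mean r with the keratins, 0.81 and 0.80, and log2 fold changes of 0.91 and 0.39 (edgeR adjusted p = 0.553 and 0.788).

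Signals that act on keratinocytes through the EGF receptor are known to induce Krt6 and Krt16. The 11 genes of the EGF receptor and its ligands had a median log2 fold change of 0.06, with 6 positive and 5 negative. The ligand Hbegf averaged 11.6 ± 4.04 CPM in Ctrl and 14.2 to 17 CPM in the media (log2 fold change 0.43, edgeR adjusted p = 0.606). Areg, amphiregulin, stood at 3.12 ± 1.84 CPM in Ctrl and 1.71 to 2.88 CPM in the media (-0.51, edgeR adjusted p = 0.625). Tgfa had its highest r, 0.79, with Krt17, and 0.59 to 0.62 with the other 3 keratins. Its log2 fold change was 0.29 (edgeR adjusted p = 0.722).

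The 14 transcription factors tied to keratin genes had a median log2 fold change of 0.05, with 9 positive. Klf4, a factor of the differentiating layers, averaged 128 ± 27.6 CPM in Ctrl and 158 to 192 CPM in the media (0.44, SE 0.13, edgeR adjusted p = 0.412). Nfe2l2, which encodes the stress factor Nrf2, had 0.14 (edgeR adjusted p = 0.554). Jun, a component of AP-1, had r of 0.72, 0.70, 0.72 and 0.36 with Krt6a, Krt6b, Krt16 and Krt17 and a log2 fold change of 0.19 (edgeR adjusted p = 0.566). Of 13 cytokines and growth factors acting on keratinocytes, 10 were tested, since Il17a, Il22 and Il20 were under the filter, and their median was 0.10. Il1a, an interleukin released by damaged keratinocytes, averaged 3.58 ± 2.53 CPM in Ctrl (0.50, edgeR adjusted p = 0.668), and Tnf 4.04 ± 1.37 CPM (0.39, edgeR adjusted p = 0.729). In CM1 these 2 genes averaged 7.01 ± 6.86 and 9.32 ± 10.6 CPM. In the other media Il1a averaged 4.15 to 5.06 CPM and Tnf 4.18 to 4.57 CPM. Fgf22 was, like Tgfa, closer to Krt17 (r 0.70) than to Krt6a, Krt6b and Krt16 (0.40 to 0.44).

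The other epithelial keratins, 17 tested of 19, had a median log2 fold change of 0.13, with 13 positive and 4 negative. In CMC against Ctrl 7 were positive and 10 negative (median -0.01), and Krt1 and Krt10 averaged 2055 and 1245 CPM there against 2093 and 1358 CPM in Ctrl. Krt14 averaged 2107 ± 834 CPM in Ctrl and 2638 to 3810 CPM in the media (0.57, SE 0.25, edgeR adjusted p = 0.498). Krt1 and Krt10 had 0.46 and 0.40 (edgeR adjusted p = 0.553 and 0.548) and Krt5 0.04 (edgeR adjusted p = 0.942). Krt75 had the lowest estimate of those named, -2.74 (SE 0.72, edgeR adjusted p = 0.378), with 261 CPM in Ctrl 3 and a Ctrl median of 4.07 CPM. Basal anchorage genes, 7 in number, had a median of 0.10. The 15 keratinocyte junction genes had a median of 0.14, with 12 positive. By medium, 15 of them were positive in CMA (median 0.40), 14 in CM0, 12 in CM1 and 5 in CMC (median -0.10). With their score as a covariate, the log2 fold changes in the mean of the media were 0.52 for Krt6a, 0.60 for Krt6b and 0.49 for Krt16 (edgeR adjusted p = 0.692, 0.677 and 0.684).

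**Figure D5:**
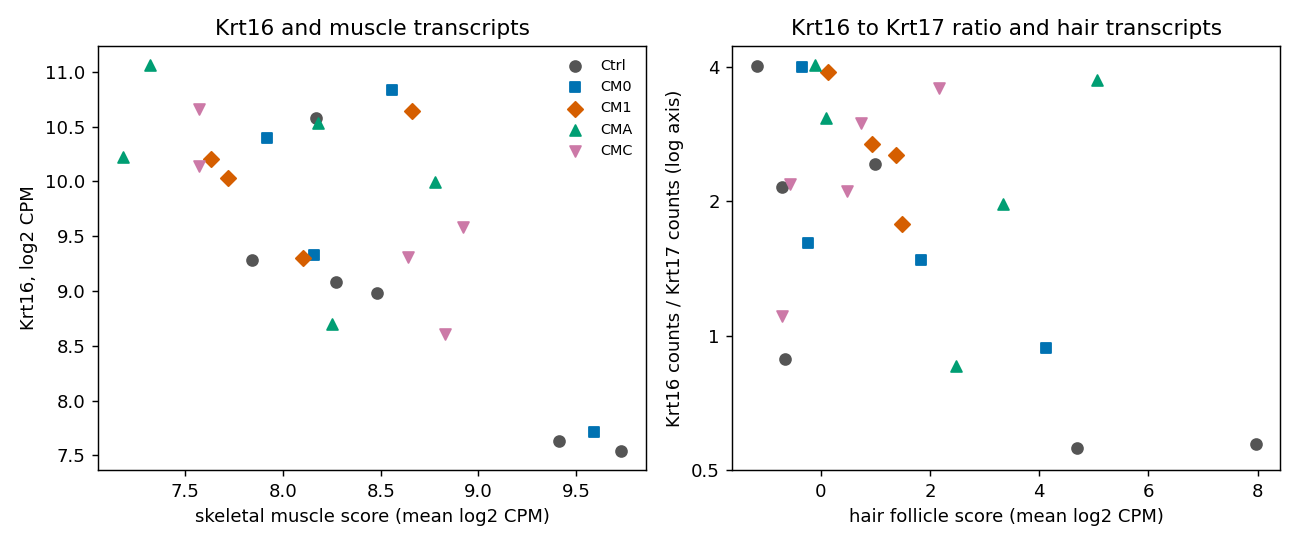
Left, Krt16 in log2 CPM against the skeletal muscle score, and right, the count ratio of Krt16 to Krt17 (log axis) against the hair follicle score, 1 point per library. On the left 3 libraries, Ctrl 4, Ctrl 2 and CM0 2, stand apart with scores of 9.41 to 9.73 and the lowest Krt16. On the right Ctrl 3 and Ctrl 4 combine high hair scores with ratios of 0.571 and 0.561, but CMA 3, with a hair score of 5.06, has a ratio of 3.74, and Ctrl 2, with a score of -0.66, one of 0.886.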

How the data were processed

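The deposited files hold raw counts per gene, 1 table for each of 24 libraries. Per the labels' protocols, total RNA from snap-frozen wounds was depleted of ribosomal RNA and made into libraries with the NEBNext Ultra kit, which does not mark strand. Per the submitters' processing notes, the tools were bcl2fastq 2.17, FastQC, cutadapt, STAR, featureCounts and DESeq2 with GRCm38. The annotation release and the read length are not given in these sources, nor is the handling of multiply mapped reads.

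Symbols, coordinates and sequences come from GENCODE M21 on GRCm38, which named 54165 of 54232 genes. edgeR 4.0.16 (filterByExpr, TMM, robust quasi-likelihood, 1 term per group, all libraries) tested 18978 genes, with Benjamini-Hochberg adjusted p under 0.05 as the threshold. The log2 CPM used a prior count of 2. Exact permutation tests ran over all divisions of the libraries. DESeq2 1.42.0 and limma 3.58.1 served as alternatives. The procedure was tested on simulated data. Marker scores are means of log2 CPM over the tested genes of a list. Lists held 187 entries, of which 170 were tested. Besides the 4 keratins, the text names the 10 most and 3 least similar genes, the list genes with the 2 smallest p-values or 2 highest r, and 5 epidermal keratins. The 4 keratins and the lists were chosen with earlier results of these data known.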

Additional observations from a re-analysis of the deposited data

Results flagged for a closer look

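In the Ctrl group 1 library, Ctrl 1, stood far above the other 5 for 3 of the 4 keratins, with 1309 CPM of Krt6a, 2126 CPM of Krt6b and 1532 CPM of Krt16. Its gap to the next library in CPM exceeded Dixon's 95% limit for a group of that size. The next highest Ctrl values were 536, 700 and 623 CPM. The flag refers to CPM and not to log2 CPM, the scale of the permutation tests and correlations. There Ctrl 1 read 10.35, 11.05 and 10.58, the next Ctrl library 9.07, 9.45 and 9.28, and the lowest 6.51, 6.79 and 7.54. On that scale the next library lay nearer to Ctrl 1 than to the lowest. Krt17 in Ctrl 1, at 632 CPM, was not set apart. For normally distributed values, chance alone sets off this rule in about 1 of 20 groups, and 25 groups were examined. The 3 keratins vary together, so the 3 flags are not separate events. Ctrl 1 had a neutrophil score of 4.12, the highest of Ctrl, and a skeletal muscle score of 8.17. Their part in its keratin levels was not tested.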

How the results depend on the processing

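None of the 4 keratins was called by edgeR, DESeq2 or limma under any alternative run (RLE scaling, other filters, a keratinocyte junction covariate, libraries left out). The estimates for Krt6a, Krt6b and Krt16 against Ctrl stayed positive in all of them. In the mean of the media, leaving out 1 library gave 0.54 to 1.39 for Krt6a, 0.70 to 1.61 for Krt6b and 0.64 to 1.37 for Krt16, limma with quality weights gave 1.32, 1.58 and 1.15, and leaving out the 3 libraries highest in muscle, an alternative added after the data were seen, gave 0.39, 0.52 and 0.49. The sign of Krt17 was not fixed. With limma it was 0.31 in CM1 and 0.13 in CMC. With the junction covariate it was -0.16 in CMA and 0.12 in CMC, and that covariate gave 0.14 for Krt16 in CMC against CMA. Without the 3 muscle-rich libraries Krt17 was -0.05 in CMA and -0.10 in the mean of the media, and its exact permutation difference in CMC was -0.08. Without the 4 libraries highest in hair follicle genes it was 0.33 in CM1 and 0.28 in CMC. Leaving out 1 library moved Krt17 from -0.18 to 0.59 in CM0, -0.23 to 0.32 in CM1, -0.01 to 0.54 in CMA, -0.28 to 0.27 in CMC and -0.12 to 0.43 in the mean. Its difference of mean log2 CPM then ran from -0.04 to 0.51 in CM1, -0.19 to 0.36 in CMC and -3e-05 to 0.54 over all media, and the log2 ratio of Krt16 to Krt17 in CM0 from -0.04 to 0.68. The cause was not tested. DESeq2 called 1 gene, instead of 0, in each of CM0, CM1 and CMC against Ctrl and 1 gene, Fibin, for any difference. Leaving out 1 library gave 0 to 1 gene in CM0 (Vgll3, without CM0 2) and 0 to 5 genes in the mean of the media. Those 5, found without Ctrl 2, were Wdhd1, Krt81, Krt83, Krt87 and Ddx3y, with log2 fold changes of -0.47, -5.92, -6.22, -5.44 and 0.28. Krt81 and Krt83 belong to the hair follicle list, whose score was highest in Ctrl 3 (7.96). The part of Ctrl 3 in these calls was not tested. No paired analysis was possible because the labels give no replicate number shared between groups and name no batch. Promoter motifs and protein identity were planned and not analysed here. At 4 to 6 libraries a group and within-group spans of up to 19.3-fold, the spread between libraries limits the comparisons. The lowest count of a keratin in any library was 672.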
